A study of Mus musculus with 9 samples.

Results

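Loss of Janus kinase 1 (Jak1) was compared with the wild-type state among mouse mammary tumour cell lines that kept an epithelial character. Of 9 RNA-seq libraries, 4 had at least 100 FPKM of Epcam, the gene of an adhesion protein of epithelial cells, and these 4 were chosen by that value. FPKM are the deposited fragment numbers, scaled to the length of the transcript and to the size of the library. The knockout libraries were 45566B-Cre-Puro and 46295-D6, and the wild-type libraries were 45566B-Wt-Puro and 33373-Mneu. They came from 3 lines, so 45566B is present in both states, while 46295 and 33373 are each present in 1 state and their genotype cannot be told apart from their line. Epcam chose the libraries and its values are a description: 720 FPKM in 45566B wild type, 419.8 in 33373, 681 in 45566B knockout and 524 in 46295. The library just inside the threshold was 33373, and the one just outside it was 33377 with 2.36 FPKM.

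All lines were labelled as tumour-derived cell lines from MMTV-neu tumours of strain FVB/N, in which a mammary tumour virus promoter drives the neu (Erbb2) oncogene in mammary epithelium. The age of the mice is not given in the labels. Per the labels, 45566B was treated with puromycin in both states, and 46295 and 33373 are not named there; whether they were treated is not stated. The way each knockout was made, and whether a line is 1 clone, is not stated beyond the names. The medium held serum, insulin, epidermal growth factor and hydrocortisone, and the protocol names no interferon. No separate cultures of a line are named, so the p-values below measure the spread between these lines only.

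JAK1 is a tyrosine kinase bound to the receptors for type I interferons, interferon gamma and the gp130 family of cytokines. In the type I route it works with TYK2 to phosphorylate STAT proteins, among them STAT2, which join IRF9 and bind interferon-stimulated response elements; in the interferon gamma route it works with JAK2, and STAT dimers bind gamma-activated sequences. Downstream genes code for antiviral proteins, nucleic acid sensors, immunity-related GTPases and the MHC class I pathway that shows peptides to T cells.

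The core of the interferon-stimulated response element (GAAA, then any 2 bases, then GAAA again) was searched on both strands in the 250 bases before each RefSeq start site (GRCm38.p6). It is shown in capitals for 4 genes with different roles, which were chosen after their values were seen: Stat2 (transducer), Isg15 (antiviral modifier), Irgm2 (GTPase) and B2m (antigen presentation). The windows are chr10:128270248-128270497 on the + strand, chr4:156200819-156201068 on the - strand, chr11:58214727-58214976 on the + strand and chr2:122147437-122147686 on the + strand.
Stat2: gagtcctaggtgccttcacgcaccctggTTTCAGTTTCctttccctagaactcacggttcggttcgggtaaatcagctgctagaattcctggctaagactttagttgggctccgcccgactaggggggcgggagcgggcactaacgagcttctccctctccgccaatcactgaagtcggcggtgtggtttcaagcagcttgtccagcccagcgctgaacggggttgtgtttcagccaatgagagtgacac
Isg15: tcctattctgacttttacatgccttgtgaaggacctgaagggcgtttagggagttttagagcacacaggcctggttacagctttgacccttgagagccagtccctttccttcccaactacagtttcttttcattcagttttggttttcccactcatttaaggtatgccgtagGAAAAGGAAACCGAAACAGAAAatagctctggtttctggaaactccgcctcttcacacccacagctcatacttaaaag
Irgm2: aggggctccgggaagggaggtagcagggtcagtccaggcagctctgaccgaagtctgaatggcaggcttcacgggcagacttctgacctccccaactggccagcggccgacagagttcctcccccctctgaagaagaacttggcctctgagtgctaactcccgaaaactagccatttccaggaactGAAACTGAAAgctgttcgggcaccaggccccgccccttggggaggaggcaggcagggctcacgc
B2m: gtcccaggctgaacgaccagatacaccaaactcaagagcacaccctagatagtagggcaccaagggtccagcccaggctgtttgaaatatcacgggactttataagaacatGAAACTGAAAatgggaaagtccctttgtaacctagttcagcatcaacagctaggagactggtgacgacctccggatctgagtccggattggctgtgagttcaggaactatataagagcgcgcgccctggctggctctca
In Stat2 the match lies on the opposite strand and begins 222 bases before the start site. Isg15 holds 3 overlapping matches that begin 78, 72 and 66 bases before it. The matches of Irgm2 and B2m begin 64 and 139 bases before it. Such a match describes the letters of this window and is not a shown binding site.

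The knockout libraries had lower levels of nearly the whole interferon-stimulated programme in both lines. Of 93 genes on 5 lists of interferon-stimulated genes, all found above 0, 78 (83.9%) had both knockout libraries below both wild-type libraries, against 10.6% of 17683 genes with no filter on low values. Of 29 MHC class I pathway genes, 23 (79.3%) did. Among the 11701 tested genes (mean over the 4 libraries of 1 FPKM or more) the share was 9.61% for lower and 11.3% for higher genes, and the median log2 difference, knockout minus wild type on the log2(FPKM + 1) scale, was 0.02. With short noncoding RNA genes left out and the libraries rescaled, 785 genes were separated downwards and 1718 upwards in place of 1125 and 1325, so the lower genes were 31.4% of the separated genes in place of 45.9%.

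A gap of at least 1 on the log2 scale between the lowest wild-type and the highest knockout library was found for 112 genes (0.957% of those tested), and in the other direction for 15 (0.128%). Of the 112, 63 were on interferon lists, which here include the transducers and interferon regulatory factors, 8 on MHC class I lists, 4 on other lists, 18 were short noncoding RNA genes and 19 were on no list. None of the 15 higher genes was on an interferon or MHC class I list. The motif shown above was present in 29 of 68 lower genes with a promoter entry, short noncoding RNA genes left out (42.6%), in 0 of 7 higher ones and in 3.07% of the tested genes with an entry. The gamma-activated sequence TTCNNNGAA, which reads alike on both strands, was present in 17.6% of the 68 and in 7.19% of tested genes. By list, the first motif was held by 9 of 10 GTPase genes and 9 of 16 RNA-binding or RNA-degrading effectors. It was held by 3 of 11 class I heavy chain genes with B2m and 0 of 10 peptide loading genes. Of the receptor and transducer genes 1 of 10 held it, Stat2, and of the interferon regulatory factors 1 of 7.

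No gene passed limma's two-sided test at a Benjamini-Hochberg adjusted p of 0.05 over the 11701 genes (0% called; smallest adjusted p = 0.110). At an unadjusted p under 0.05 there were 154 lower (1.32%) and 34 higher genes (0.291%). On simulated data of the same size and spread the test called 0 genes even at shifts of 4 on the log2 scale and recovered none of the changed ones, so a count of 0 calls from 2 against 2 libraries does not tell how many genes differ. Both wild-type libraries were also deeper than both knockout libraries (relative depth 1 for 45566B wild type and 0.737 for 33373, against 0.651 for 45566B knockout and 0.415 for 46295), and the part of depth in low values was not tested. The column of 33373 lacks a name suffix that the other 3 carry, so it may have been scaled apart from them; the 45566B pair does not rest on it.

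The interferon receptors and their kinases differed by less than 1 on the log2 scale. Jak1 itself had 16.1 FPKM in 45566B wild type and 19.4 in 33373, against 14.2 in 45566B knockout and 22.97 in 46295, a log2 difference of 0.03 (SE 0.35). The knockout libraries lie on both sides of the wild type, so the FPKM of the whole gene (chr4:101152367-101265282, - strand, GRCm38) do not check the labels, and a lost exon would not show in them. Ifnar1 and Ifnar2, the 2 chains of the type I interferon receptor, were somewhat lower in the knockout, and Ifnar2 had wild-type values of 60.1 and 75.7 FPKM and knockout values of 43.3 and 44.2. Ifngr1, the ligand-binding chain of the interferon gamma receptor, lay between 56.7 and 65.1 FPKM in all 4 libraries. Jak2 was at 8.65, 7.10 and 7.13 FPKM in 3 libraries and at 26 in 46295 knockout, and Tyk2 at 11.2 there against 4.72 to 7.16 in the others.

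Irf9 and Stat2, whose products act together below these receptors, were lower. Irf9, the DNA-binding partner of the STAT proteins, had 43.7 and 47.2 FPKM in the wild type (45566B, then 33373) and 4.03 and 3.58 in the knockout (45566B, then 46295). The genotypes do not overlap, and the log2 difference was -3.28 (SE 0.26, limma adjusted p = 0.167). Stat2 had 30.8 and 44.1 FPKM against 4.46 and 4.82, a log2 difference of -2.75 (SE 0.31, limma adjusted p = 0.225). In all, 6 of the 12 receptor and transducer genes were separated downwards and 1, Ifngr1, upwards.

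**Figure D1:**
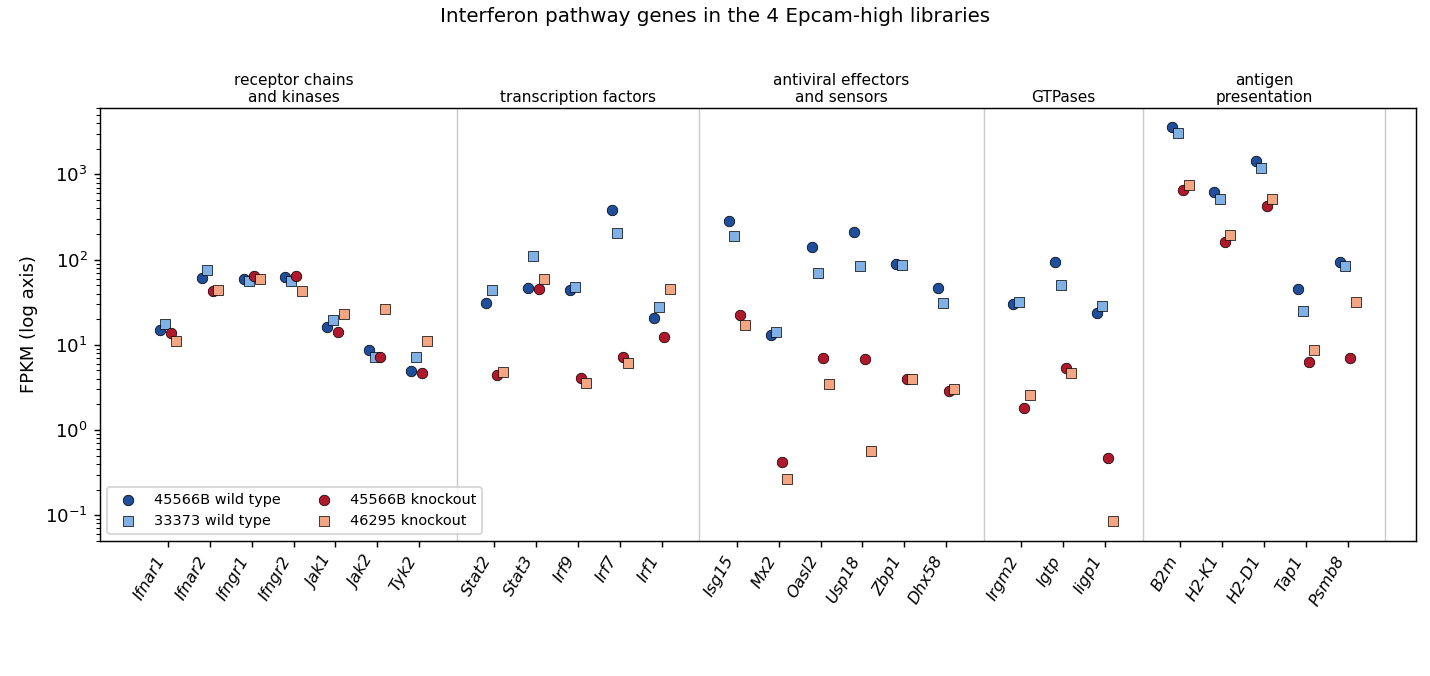
FPKM (log axis) of interferon pathway genes in each of the 4 Epcam-high libraries, blue for wild type and red for knockout, circles for line 45566B and squares for 33373 and 46295. Receptor chains and kinases overlap or lie close, while Stat2, Irf9, Irf7 and the effector, GTPase and antigen presentation genes shown are lower in both knockout libraries; Stat3 and Irf1 are not.

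The list of interferon regulatory factors leaves out Irf9, which was listed with the transducers and was lower as given above. Of the 6 tested genes on this list only Irf7, the factor that amplifies type I interferon responses, was separated downwards. It had 386 and 203 FPKM in the wild type and 7.16 and 6.07 in the knockout, a 44.5-fold ratio of the mean FPKM (log2 difference -5.21, SE 0.40, limma adjusted p = 0.167). The 45566B pair differed by -5.57 and 46295 against 33373 by -4.85. Irf1, a target of interferon gamma signalling, did not follow: 20.7 and 28.2 FPKM in the wild type, 12.2 in 45566B knockout and 44.7 in 46295. The knockout libraries thus lie below and above the wild type. Irf3, which acts before interferon is made, had 20.8 and 22.5 FPKM against 23.3 and 32.2 and was separated upwards, with a log2 difference of 0.33.

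Nucleic acid sensors that are themselves interferon-stimulated were lower, and the adaptor genes were not. Zbp1, a sensor of Z-form nucleic acids, had 89.4 and 86.7 FPKM in the wild type and 4.02 and 3.96 in the knockout. The 2 libraries of each genotype nearly coincide, and this gene had the smallest p apart from short noncoding RNA genes (log2 difference -4.16, SE 0.25, limma adjusted p = 0.110). Dhx58, which codes for the RIG-I-like protein LGP2, had 46.6 and 31.3 against 2.83 and 3.02 FPKM. Of the 15 sensor genes, 13 were tested and 10 were separated downwards with a list median of -1.68. The adaptors Mavs, at 14.6 to 16.4 FPKM, and Tmem173 (STING), at 36.1 to 47.2, overlapped between the genotypes.

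Antiviral effectors showed the same order of libraries. Isg15, a ubiquitin-like modifier, had 287 and 191 FPKM in the wild type and 22.4 and 17.0 in the knockout (log2 difference -3.52, SE 0.34, limma adjusted p = 0.214). Mx2, a dynamin-like GTPase that restricts viruses, had 13.2 and 14.0 against 0.416 and 0.264 FPKM. Ifi44 had 71.2 and 62.6 against 1.65 and 3.22, and Lgals3bp, a secreted glycoprotein, 622 and 362 against 26.1 and 21.5. In each of these genes every wild-type library is above every knockout library by more than 3 on the log2 scale. Oasl2, of the oligoadenylate synthetase family, had 139 and 69.4 FPKM against 7.05 and 3.43, and Eif2ak2, the RNA-activated kinase PKR, 47.7 and 52.4 against 8.91 and 12.4.

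Over the 36 listed type I effectors outside the RNA-binding group, 31 were tested, 29 were separated downwards (32 of 36 with no filter) and 25 had a gap of at least 1, with a median log2 difference of -1.88. Of the 19 RNA-binding or RNA-degrading effectors, 17 were tested and 13 separated downwards (15 of 19 with no filter), with a median of -2.47. All 6 PARP and DTX3L genes, ADP-ribosyltransferases and their partner, were tested and separated downwards with a gap of at least 1; Parp12 had 48.4 and 32.6 FPKM against 6.84 and 7.95, and the list median was -1.84. Of the tested members of the 5 interferon-stimulated lists, 13 of 77 had a knockout mean under 1 FPKM and passed the filter through the wild type alone, so they had to be lower, and the remaining 16 of 93 were under the filter.

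The GTPases induced by interferon gamma had the lowest list median, -3.02 over the 10 tested of 17 listed genes. Irgm2 had 30.4 and 32.2 FPKM in the wild type and 1.81 and 2.59 in the knockout (log2 difference -3.34, SE 0.29, limma adjusted p = 0.203). Igtp had 92.8 and 50.9 against 5.30 and 4.72, and Iigp1 23.4 and 28.4 against 0.471 and 0.0854. Gbp9, a guanylate-binding protein gene, had 13.1 and 14.8 FPKM against 0.837 and 0.409. All 4 genes are separated by about 3 or more on the log2 scale in the 45566B pair and in 46295 against 33373 alike. With no filter 15 of the 17 genes were separated downwards, and 3 of the 10 tested passed the filter through the wild type alone.

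**Figure D2:**
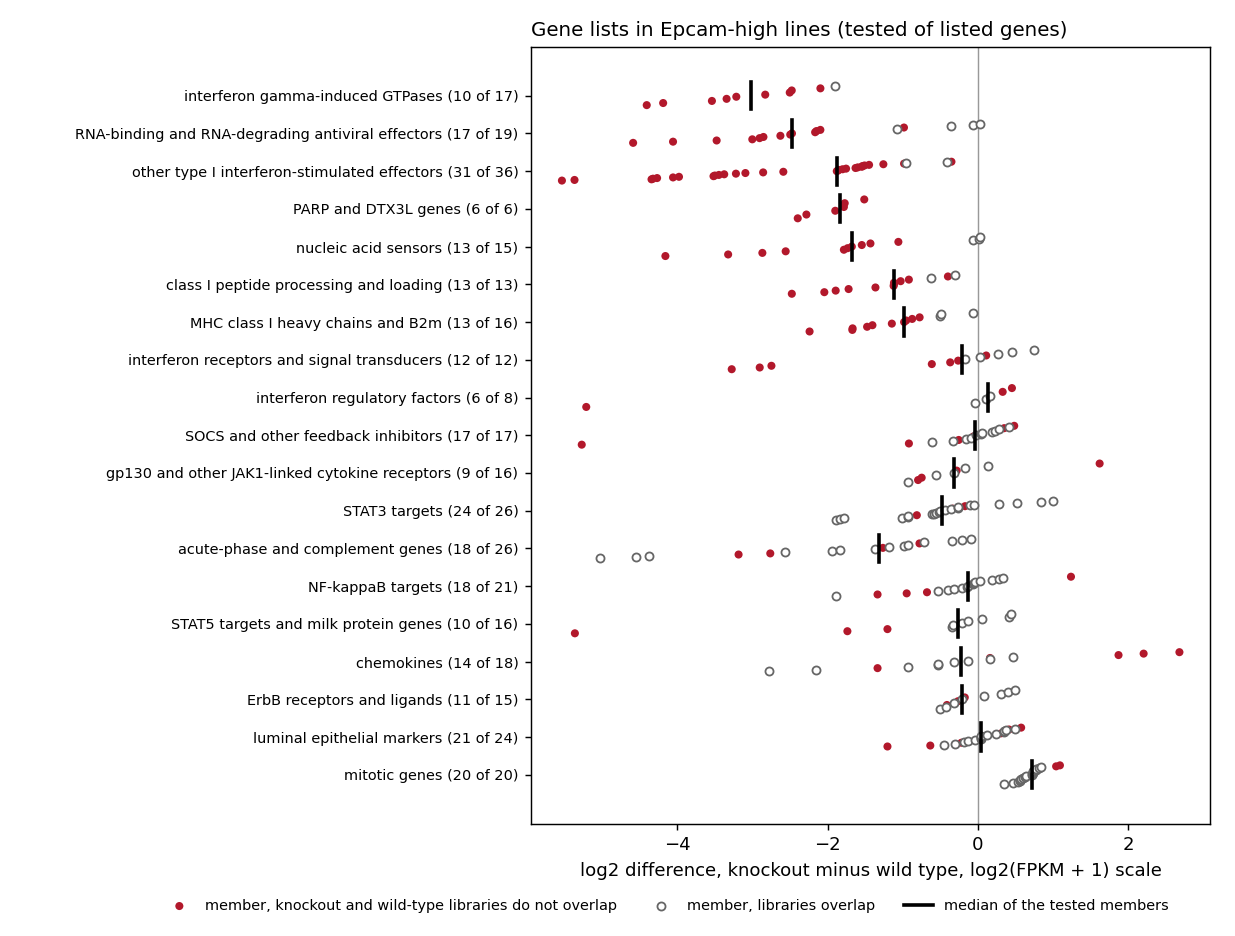
Log2 difference, knockout minus wild type, of each tested member of 19 gene lists (tested of listed genes in brackets), with filled red points where the 2 knockout and 2 wild-type libraries do not overlap, open points where they do, and a black bar at the median. The interferon-stimulated and MHC class I lists lie almost wholly left of 0, from a median of -3.02 for the GTPases to -0.98 for the class I heavy chains, while the other lists spread around 0 or rest on open points.

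MHC class I genes were lower by smaller factors. B2m, the light chain of every class I molecule, had 3632 and 3046 FPKM in the wild type and 656 and 754 in the knockout, a 4.73-fold ratio (log2 difference -2.24, SE 0.27, limma adjusted p = 0.274). The classical heavy chain genes H2-K1, with 622 and 513 FPKM against 160.5 and 195, and H2-D1, with 1432 and 1206 against 430.2 and 519, were separated as well. H2-Q4, a class Ib gene, had 130.3 and 121 against 40.7 and 37.1. Of the 16 heavy chain genes with B2m, 13 were tested and 10 separated downwards, with a median of -0.98. These genes are near-identical copies in part, and reads may have been split between them.

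The genes that make and load class I peptides were lower in both knockout lines, more so in 45566B. Tap1, a subunit of the peptide transporter, had 44.7 and 25.04 FPKM in the wild type and 6.29 and 8.61 in the knockout (log2 difference -2.04, SE 0.40, limma adjusted p = 0.853). Psmb8, an immunoproteasome subunit, had 92.9 and 84.8 FPKM against 7.04 and 31.4, and Psmb9, another subunit, 33.3 and 23.7 against 3.24 and 13.5. In both genes the genotypes do not overlap, and 46295 lies between 45566B knockout and the wild type. Nlrc5, the transactivator of class I genes, had 3.16 and 2.38 FPKM against 0.180 and 0.0953. Of 13 genes on this list, 11 were separated downwards, the median was -1.12, and it was -1.59 in the 45566B pair and -0.995 between 46295 and 33373. Calr and Pdia3, chaperones of the endoplasmic reticulum with wider roles, overlapped between the genotypes.

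Lgals9, a galectin that binds the checkpoint receptor TIM-3, was the only one of 12 checkpoint and surveillance ligand genes with a gap of at least 1 downwards, with 276 and 154 FPKM in the wild type and 41.2 and 48.7 in the knockout. Cd274, the gene of PD-L1, was at 1.13 FPKM in 33373 and at 0.297 or less in the other 3 libraries and was under the filter.

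Some interferon-linked genes were not separated, and several of them were at wild-type levels or above in 46295 knockout. They were picked after seeing their values. Ifi47, a GTPase, had 21.3 and 38.6 FPKM in the wild type, 0.771 in 45566B knockout and 34.8 in 46295. Uba7, the activating enzyme for ISG15, had 12.8 and 11.2 FPKM in the wild type, 2.03 in 45566B knockout and 13.7 in 46295, and Isg20, an exonuclease, 32.0 and 40.2, then 14.2 and 81.0. In these 3 genes the 45566B pair follows the other interferon-stimulated genes and 46295 does not. Ifitm3, a membrane protein that blocks virus entry, showed the opposite: 2774 and 1611 FPKM in the wild type, 352 in 45566B knockout and 6.45 in 46295. Of the 77 tested interferon-stimulated genes, 6 were higher by at least 1 on the log2 scale in 46295 than in 45566B knockout, and 7 were higher in 45566B knockout (7.79% and 9.09%, against 10.1% and 7.82% of all genes tested, which is near the background).

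The difference was present in each of 2 comparisons that share no library. In the 45566B pair, which holds the line constant, the median over the 77 tested interferon-stimulated genes was -2.33, and between 46295 and 33373 it was -2.04; 69 of the 77 (89.6%) were lower in both, against 23.2% of all genes tested. For the 26 tested class I genes the medians were -1.33 and -1.01. Of the 77 genes 13, and of the 26 genes 2, passed the filter through the wild type alone, so their knockout mean had to be lower. Over all genes, 384 (3.28%) differed by at least 1 on the log2 scale in the 45566B pair, 1918 (16.4%) between 33373 and 46295, 2367 (20.2%) between the 2 wild-type libraries and 2099 (17.9%) between the 2 knockout libraries.

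**Figure D3:**
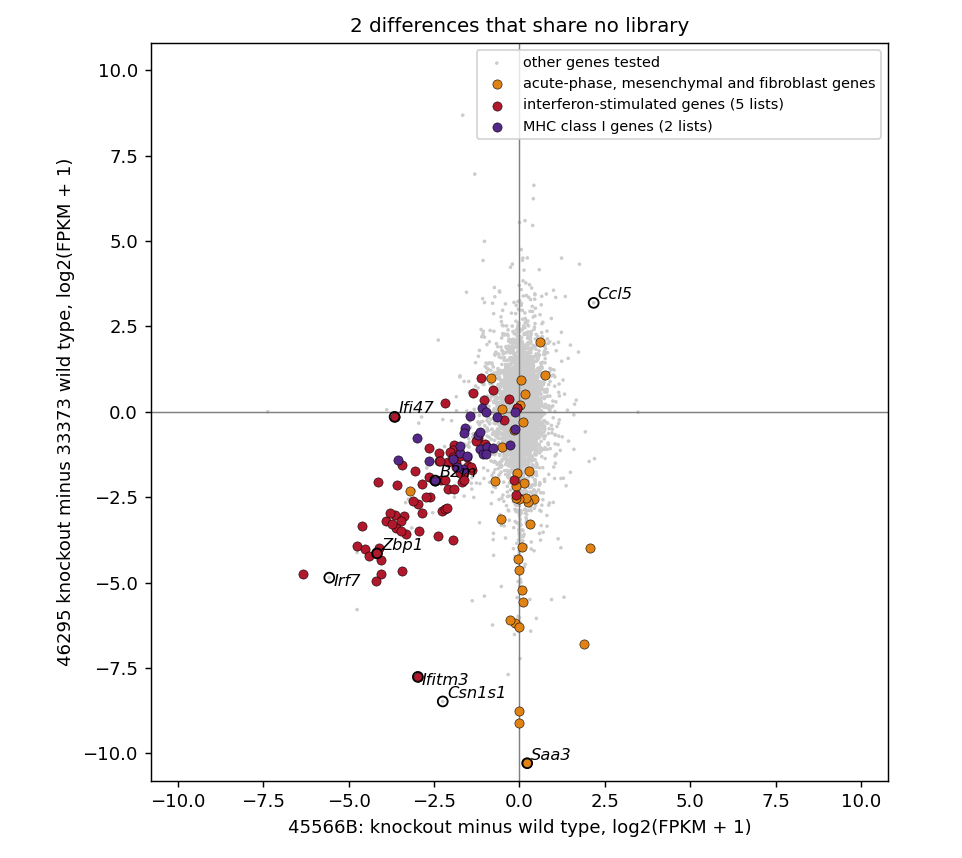
Each point is 1 tested gene (short noncoding RNA genes left out), with the 45566B knockout minus wild-type difference on the horizontal axis and the 46295 minus 33373 difference on the vertical axis, both on the log2(FPKM + 1) scale. Interferon-stimulated (red) and MHC class I genes (purple) lie low on both axes, while acute-phase, mesenchymal and fibroblast genes (orange) lie near 0 horizontally and reach far down vertically; Saa3 is the lowest of them.

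Of the feedback inhibitors of the pathway, Usp18, which blocks the type I receptor, was lower by the widest ratio: 209 and 85.1 FPKM in the wild type against 6.79 and 0.559 in the knockout (log2 difference -5.27, SE 0.94, limma adjusted p = 0.720). Socs1, an inhibitor of JAK kinases, was low throughout, with 1.054 and 2.43 FPKM against 0.254 and 0.575. Socs3, which inhibits gp130 signalling, was high in 33373 alone among the wild type (14.3 FPKM, against 0.280 in 45566B) and at 0.497 and 4.66 in the knockout, so the genotypes overlap. Socs1 passed the filter through the wild type alone, so it had to be lower. Of the 17 listed inhibitors, all tested, 4 were separated downwards (background 9.61%) and 2 upwards (background 11.3%). The medians over the 17 were -0.03 for the fit and 0.04 for the 45566B pair.

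Few genes were higher in the knockout by a gap of at least 1 on the log2 scale (the 15 above), although 1325 were separated upwards by any gap. Ccl5, a chemokine that attracts T cells, had 44.6 and 13.1 FPKM in the wild type and 204 and 128 in the knockout (log2 difference 2.68, SE 0.67, unadjusted p = 0.0139 and adjusted p = 1.0 in limma). Ulbp1, a ligand of the NK cell receptor NKG2D, had 4.31 and 5.06 FPKM against 11.5 and 15.9. Plau, the urokinase-type plasminogen activator, had 10.7 and 6.47 against 22.6 and 28.6. In these 3 genes both knockout libraries are above both wild-type libraries by at least 1 on the log2 scale. Dgkk, a diacylglycerol kinase gene, had 0.613 and 0.00498 FPKM against 4.45 and 19.1, and Dll1, a Notch ligand, 17.6 and 12.5 against 31.8 and 43.9. The rule for named genes also gave Ctnnal1, Acsbg1, Rgs12, Depdc7 and Snhg9, with log2 differences of 1.02 to 1.78. Snhg9, a noncoding RNA, was listed at 0 in both wild-type libraries. Snhg9 and Dgkk, which had a wild-type mean of 0.309 FPKM, passed the filter through the knockout alone, so they had to be higher.

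Among 14 tested chemokine genes, 4 were separated upwards (background 11.3%) and 1 downwards (background 9.61%). Besides Ccl5 the 4 were Cxcl3, with 2.39 and 1.21 FPKM in the wild type and 3.62 and 20.7 in the knockout, Cxcl14, with 0.480 and 1.24 against 2.09 and 21.8, and Cxcl16, with 59.7 and 58.1 against 70.2 and 62.1. Cxcl14 had a wild-type mean of 0.859 FPKM and passed the filter through the knockout alone, so it had to be higher. Ccl20 was separated downwards with 172 and 85.7 against 64.5 and 35.1. Cxcl10, an interferon-induced chemokine, had 8.25 and 4.37 FPKM against 6.98 and 0.717 and overlapped.

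Genes of the gp130 and STAT3 side of the pathway had smaller gaps between the genotypes, or none. Stat3 had 46.4 FPKM in 45566B wild type, 110 in 33373, 45.7 in 45566B knockout and 59.7 in 46295. Of the 26 STAT3 targets 24 were tested and 3 separated downwards (background 9.61%), with a median of -0.48 in the fit, 0.03 in the 45566B pair and -0.83 between 46295 and 33373. Bcl3, a STAT3 target, had 31.0 FPKM in 33373 and 4.43, 5.75 and 5.30 in 45566B wild type, 45566B knockout and 46295. Cebpd, another target, had 98.1 FPKM in 33373 and 8.90, 12.1 and 32.5 in the same order of the other libraries. Both genes are highest in 33373 and lowest in 45566B wild type, with both knockout libraries between them. Of 16 gp130 and other JAK1-linked cytokine receptor genes 9 were tested and 3 were separated downwards (33.3%, background 9.61%), by gaps of at most 0.12 on the log2 scale. Il6st, the gene of gp130 itself, had 22.2 and 41.1 FPKM in the wild type and 21.2 and 13.6 in the knockout. The other 2 were Il6ra, the interleukin 6 receptor, with 3.84 and 9.74 FPKM against 3.47 and 3.13, and Il15ra, the interleukin 15 receptor chain, with 3.54 and 2.37 against 2.15 and 2.29. Separated upwards was 1 gene of this list (background 11.3%), Cntfr, by a wider gap of 0.66. It had 5.65 and 0.780 FPKM in the wild type and 9.49 and 9.65 in the knockout. The list median was 0.03 in the 45566B pair and -0.75 between 46295 and 33373.

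The values of acute-phase genes rested on 33373. Of 26 listed genes (1 symbol was not found) 18 were tested, and 5 of these passed the filter through the wild type alone, so they had to be lower. The median of the tested genes was -1.32 in the fit, -0.00 in the 45566B pair and -2.42 between 46295 and 33373. Of these genes 4 were separated downwards (background 9.61%). Saa1, a serum amyloid gene, was listed at 549 FPKM in 33373 and at 0 in the other 3 libraries, and Saa3 at 3699 FPKM in 33373 and at 1.97 or less elsewhere. Cfb, complement factor B, was the only gene on the list with a gap of at least 1: it had 68.7 and 19.0 FPKM in the wild type and 6.56 and 3.01 in the knockout (log2 difference -2.76, SE 0.74, limma adjusted p = 1.0). Lcn2, lipocalin 2, had 28690 and 27900 FPKM against 19950 and 13660 and was separated by a smaller gap.

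Marker genes of other cell types moved with 33373 as well. The summed FPKM of 12 fibroblast genes was 218 in 33373 and 1.17 to 3.20 in the other 3 libraries, with Dcn at 78.3 FPKM in 33373 and listed at 0 in the other 3, and Col3a1 at 0.246 or less in all 4. That of 15 mesenchymal genes was 1822 in 33373 and 233 to 407 in the others, of 11 basal or myoepithelial genes 37.96 against 6.77 to 9.88, and of 9 adipocyte genes 39.2 against 6.01 to 10.9. Endothelial genes summed to 0.29 to 2.31 FPKM, and Pecam1 was at 0.0413 or less. Of 13 immune genes, Ptprc, the common leukocyte antigen, was at 0.0293 or less and Cd3e was listed at 0 in all 4, while Cd68 was at 106 FPKM in 46295 and at 6.57 to 17.7 in the others. In these bulk libraries fewer cells of a type and less RNA per cell cannot be told apart, and the part of these markers in the STAT3 and acute-phase values was not tested. Without 33373 the median of the list of type I effectors was -2.32, against -1.88 in the fit. In the 45566B pair, where the fibroblast sums were 1.17 and 1.38 FPKM, the 77 tested interferon-stimulated genes had a median of -2.33. Over the same 77 genes the fit gave -2.17.

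**Figure D4:**
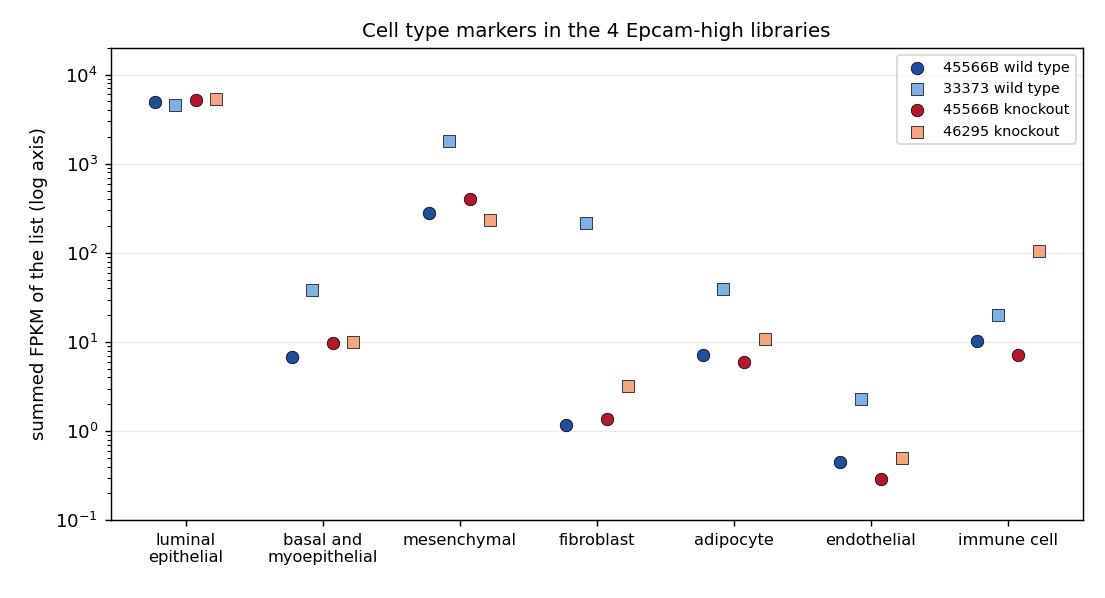
Summed FPKM (log axis) of 7 lists of cell type markers in each of the 4 libraries, blue for wild type and red for knockout, circles for 45566B and squares for 33373 and 46295. Luminal epithelial sums are alike at 4586 to 5340 FPKM, 33373 is highest for basal, mesenchymal, fibroblast, adipocyte and endothelial genes, and 46295 is highest for immune genes through Cd68 alone.

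Other epithelial genes overlapped between the genotypes for the most part; the libraries were chosen for high Epcam, which is itself on the luminal list, so this is a description of the choice. Krt8, a luminal keratin, had 479 and 620 FPKM in the wild type and 626 and 447 in the knockout, and Cdh1, E-cadherin, 162 and 134 against 135 and 169. The 21 tested of 24 luminal markers had a median of 0.04, with 3 separated in each direction (background 9.61% lower and 11.3% higher). Krt14, a basal keratin, had 30.8 FPKM in 33373 and 1.77 to 6.39 in the other libraries. Erbb2, whose rat homologue is the transgene, had 335 and 160 FPKM against 264 and 314; transgene and mouse gene may share reads. The 11 tested ErbB receptor and ligand genes had a median of -0.21, with 3 separated downwards (background 9.61%) and 0 upwards (background 11.3%). Of the 11, 1 passed the filter through the wild type alone.

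Milk protein and STAT5 target genes were mixed. Prlr, the prolactin receptor, had 25.4 and 41.4 FPKM in the wild type and 15.1 and 12.1 in the knockout (log2 difference -1.20, SE 0.36, limma adjusted p = 1.0). Csn1s1, alpha casein, had 907 and 744 FPKM against 190.5 and 1.09, and Xdh, a milk fat globule enzyme, 23.9 and 161 against 19.3 and 17.0. These 3 of the 10 tested genes were separated downwards (background 9.61%). Elf5, the transcription factor of the alveolar lineage, had 28.9 and 84.1 FPKM against 24.9 and 80.8. Its values were close within the 45566B pair, and close between 33373 and 46295, which are different lines.

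All 20 mitotic genes were higher in the knockout mean (52.9% of all genes tested were), with a median of 0.72, but 2 were separated (background 11.3%) and the median was 0.33 in the 45566B pair. Mki67, a marker of cycling cells, had 73.5 and 12.2 FPKM in the wild type and 73.3 and 29.3 in the knockout: the 45566B pair is alike and 33373 is the lowest library. Ccnb2, cyclin B2, was separated, with 41.2 and 26.6 FPKM against 69.9 and 73.6.

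Whether the effect of the knockout differed from that in lines with low Epcam (at most 2.36 FPKM) was tested with the other 5 libraries (wild type 45555, 47298 and 33377, knockout 45555 and 47298) in 1 limma fit of 12198 genes. In all, 1 gene was called (0.0082%), the microRNA gene Mir6991, which was listed at 0 in all 5 Epcam-low libraries, so no effect could be seen there. With line as a block, which takes the effects from 45566B, 45555 and 47298 alone, 0 genes were called (145 lower and 124 higher at an unadjusted p under 0.05), and the adjusted p of Mir6991 in limma was 0.325. In the fit without the block, at an unadjusted p under 0.05 there were 68 lower (0.557%) and 70 higher genes (0.574%). Of the interferon-stimulated and class I genes, none was called, with adjusted p-values of 0.9998. At the unadjusted p, 4 of 101 such genes had a more negative log2 effect in the Epcam-high lines. They were Epsti1 (difference of the log2 effects -2.41, SE 0.66), Lgals3bp (-2.20, SE 0.72), Trim30a (-2.95, SE 1.15) and B2m (-1.70, SE 0.68). Ifitm2 had the opposite (1.34, SE 0.49). Epsti1 was at 1.37 FPKM or less in every Epcam-low library, so hardly any fall could be seen there. The number of such genes with a more negative value in the Epcam-high lines was 67 of 76 interferon-stimulated and 22 of 25 class I genes (88.2% and 88.0%, against 48.8% of all genes), and the medians in the Epcam-low lines were -1.37 and -0.52. Without 33377 these medians were -0.81 and -0.19, and the numbers were 65 of 76 and 24 of 25 (85.5% and 96.0%, against 50.3% of all genes). The 2 Epcam-low pairs differed in sign for the class I genes, with medians of -0.77 in 45555 and 0.48 in 47298. For the interferon-stimulated genes the medians were -0.84 in 45555 and -0.72 in 47298. Members near 0 in an Epcam-low wild-type library, such as Cmpk2 at 0.0702 FPKM in 45555, can hardly fall there and are counted in.

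The levels show where the values part. B2m had 1648, 660 and 995 FPKM in the Epcam-low wild type (33377, 45555 and 47298) and 501 and 997 in the knockout (45555 and 47298), so these groups overlap, unlike those of the Epcam-high lines. Isg15 had 285, 11.96 and 34.8 FPKM in the Epcam-low wild type and 1.64 and 8.14 in the knockout, with log2 effects of -3.52 in the Epcam-high and -3.38 in the Epcam-low lines. The Epcam-low value rests on 33377, which has no knockout partner: without it the effect was -2.13, with -2.30 in the 45555 pair and -1.97 in the 47298 pair, against -3.62 in the 45566B pair. Zbp1 had 49.0, 0.589 and 1.93 FPKM against 0.0220 and 2.45. The Epcam-low wild-type libraries spread far more than the Epcam-high ones, with 33377 the highest in all 3 genes, and this spread enters the test of the difference.

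Some genes could show an effect in the Epcam-high lines only, since they were near 0 in the others. Slc1a1, a glutamate transporter, had 22.8 and 28.2 FPKM in the Epcam-high wild type, 8.05 and 5.08 in the knockout and 0.0299 or less in every Epcam-low library. Prlr was likewise at 0.169 FPKM or less in every Epcam-low library. Acot1, an acyl-CoA thioesterase, was measured in all 9 libraries and differed between the states at the unadjusted p: 20.8 and 22.1 against 26.8 and 33.99 FPKM in the Epcam-high lines, and 10.5, 9.67 and 13.8 against 1.86 and 1.26 in the Epcam-low lines (difference 2.74, adjusted p = 0.254 in limma, and 1.0 with line as a block). Zfp36l1, Dnm1 and Gas7 were the other genes with long transcripts named by the rule for this direction, with differences of 2.14, 3.15 and 1.98. Gas7 was at 0.835 FPKM or less in every Epcam-high library, so hardly any fall could be seen there. Dnm1 was at 2.99 FPKM or less in the Epcam-high libraries, so a fall there could only be small.

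**Figure D5:**
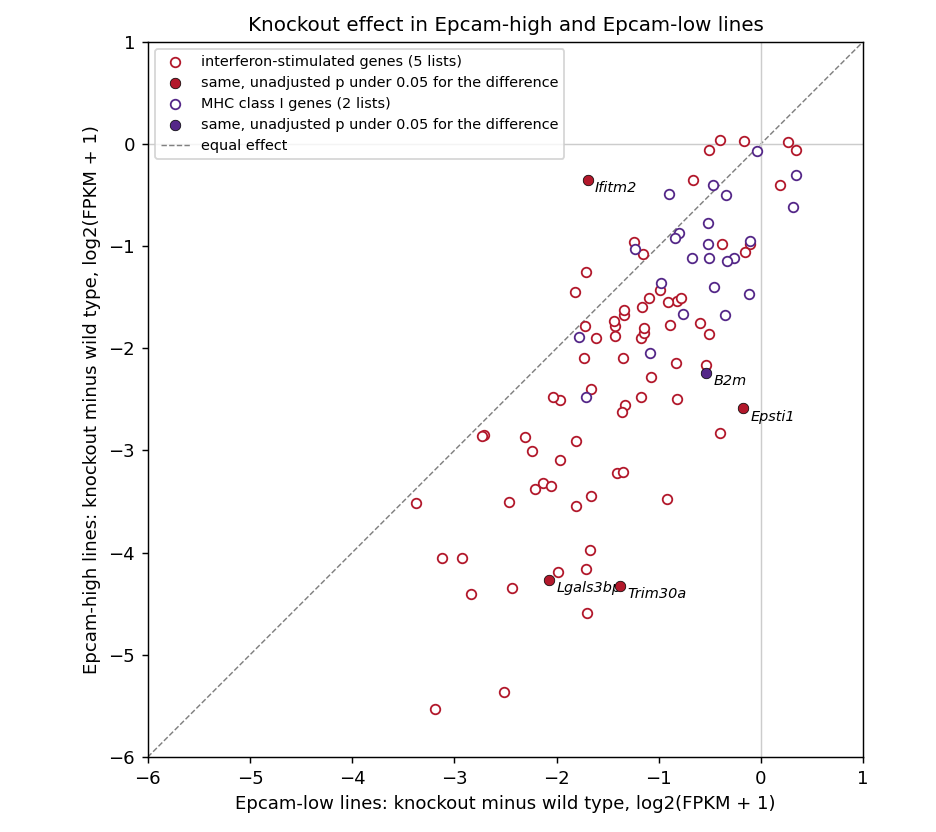
Log2 difference, knockout minus wild type, in Epcam-high lines (vertical) against Epcam-low lines (horizontal) for the interferon-stimulated (red) and MHC class I genes (purple) tested in both, filled where the difference of the effects has an unadjusted p under 0.05. Most points lie below the dashed line of equal effects, the 5 filled genes are named, and Ifitm2 alone of these lies above it.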

How the data were processed

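The unit of the deposited table is FPKM per gene symbol. Per the submitters' processing notes the authors used cutadapt, TopHat2 2.1, Cufflinks 2.2 and Cuffnorm on mm10. Their scaling option and annotation, and whether strand was used, are not stated in those sources. Reads of overlapping or antisense genes may therefore be mixed. Of 24346 rows, 4 with a repeated name were left out. Names of 27 rows were turned into dates. FPKM hold no counts, so precision is given by the spread between libraries alone; relative depth came from the steps of low values.

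Genes whose mean reached 1 FPKM were tested with limma 3.58.1 (R 4.3.3) on log2(FPKM + 1), which understates the change of low genes, with a variance that follows the mean, two-sided. The difference between Epcam states was a contrast of 4 group means over 9 libraries. Fits were tested on simulated data. Positions are from GENCODE release M21. The 36 lists, the members and the rule for named genes were chosen with earlier results of these data known. The rule took Jak1, the 10 lower and 10 higher genes with the smallest p, up to 4 members of each list separated at a rate over 2 times that of all genes, 5 genes in each direction of the difference between Epcam states, and 18 set genes; not every one of these is reported. Genes outside this rule were named after their values were seen. Alternatives changed the pseudocount, the filter, the scaling, the gene set, the variance trend, the libraries in the fit and each library in turn; a block for line was added after seeing the data, since libraries of 1 line are paired by it.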

Additional observations from a re-analysis of the deposited data

Results flagged for a closer look

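The effect of the knockout on Mir6991, a microRNA gene, differed between Epcam-high and Epcam-low lines by -6.72 on the log2 scale (SE 0.42, limma adjusted p = 0.0078; 0.325 with line as a block). It was listed at 94.0 FPKM in 45566B wild type and 116 in 33373 and at 0 in both knockout libraries and all 5 Epcam-low libraries. No effect could be seen in the Epcam-low lines, so the difference equals the value of the Epcam-high lines by construction and does not compare 2 measured effects. The gene is shorter than a usual sequenced fragment, so 1 or a few fragments give a large FPKM, and both wild-type libraries were the deeper ones (relative depth 1 and 0.737, against 0.651 and 0.415); the part of depth in this value was not tested.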

How the results depend on the processing

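Between the genotypes of the Epcam-high lines a block for line leaves no spread to test with, since only 45566B is present in both, so its pair alone is given. For the difference between Epcam states 3 lines are paired, and a replicate block by line, chosen after seeing the data, gave 0 adjusted calls in place of 1. Adjusted calls between the genotypes were 0 in the reported fit and 0 when each library was left out, 2 with a pseudocount of 0.1 FPKM and 4 in the fit of all 9 libraries, all of them short noncoding RNA genes. Adjusted calls for the difference between Epcam states were 1 in the reported fit, 2 with a pseudocount of 5 FPKM, 2 with no filter, 0 with a filter at a mean of 5 FPKM, 0 without short noncoding RNA genes and 0 to 23 when each library was left out (23 without 33373, 17 without 45566B wild type). Without short noncoding RNA genes and with rescaling, the median of all genes in this contrast moved from 0.02 to -0.10.

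Lower genes at an unadjusted p under 0.05 numbered 154, 241 with no filter and 124 to 479 when a library was left out; higher ones 34, 101 with no filter and 16 to 278. Lower genes with a gap of at least 1 numbered 112 and 155 to 633 when a library was left out. Higher ones numbered 15, 25 with a pseudocount of 0.1 FPKM, 6 with 5 FPKM, 9 without short noncoding RNA genes and 41 to 496 when a library was left out. With 1 library left in an arm, it is assumed to vary like the other arm. The largest of these, 633 lower and 496 higher genes, came without 45566B wild type and without 45566B knockout.

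The median of the type I effectors, -1.88, was -3.06 with a pseudocount of 0.1 FPKM, -1.42 with 5 FPKM, -2.59 with a filter at 5 FPKM, -2.33 in the 45566B pair, -2.04 between 46295 and 33373 and -2.41 to -1.81 when a library was left out. That of the GTPases, -3.02, was -3.77, -2.17 and, with no filter, -2.10. Of 35 list medians 12 kept their sign in every alternative run, among them the 7 of the interferon-stimulated and class I lists, and 23 did not. Of 97 named genes 79 kept the sign of the log2 difference in every alternative in which they could be tested (8 to 12 of them); Jak1, Stat3, Irf1, Socs3, Krt8, Erbb2, Cebpd, Bcl3 and Mki67 are among the 18 that did not.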

Other observations

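Genes on no list that had a gap of at least 1 on the log2 scale included Apol9a, an apolipoprotein L gene, with 68.0 and 27.5 FPKM in the wild type and 1.56 and 0.643 in the knockout. Helz2, a helicase gene, had 25.3 and 19.4 FPKM against 2.11 and 3.16. Shisa5, a membrane protein gene, had 290.1 and 246 FPKM against 80.9 and 100.5, and Trex1, the main cytosolic DNA exonuclease, 9.95 and 16.4 against 3.13 and 3.09. Il18bp, the secreted inhibitor of interleukin 18, had 5.26 and 6.13 FPKM against 0.307 and 1.02. In all 5 genes the 2 knockout libraries lie below both wild-type libraries. They were named after their values were seen.

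Among 229 tested short noncoding RNA genes, 18 were above 0 in both wild-type libraries and listed at 0 in both knockout libraries, and 2 had the reverse pattern. The number listed at 0 was 71 in 45566B wild type, 94 in 33373, 106 in 45566B knockout and 148 in 46295, the reverse order of the relative depths. This order did not hold among the Epcam-low libraries. There 125 were listed at 0 in 33377 (relative depth 0.768) and 110 in 47298 knockout (0.540). The part of depth was not tested.

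Klk10, a secreted kallikrein protease, had 189 and 265 FPKM in the wild type, 92.3 in 45566B knockout and 5.33 in 46295. Atp1b1, a sodium pump subunit, had 30.5 and 137 FPKM in the wild type and 13.0 and 13.5 in the knockout.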
